A study of Mus musculus with 15 samples.

Results

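Expression of 9 genes of the ADAM and ADAMTS families was followed through a clonal mouse tumour model: Adam8, Adam9, Adam12, Adam15, Adam17 and Adam19, which encode membrane-anchored proteins, and Adamts1, Adamts9 and Adamtsl3, which encode secreted ones. The 9 genes are a named list out of 27179 gene identifiers counted, and all 9 were among the 12712 genes with enough counts to be tested. The members were chosen by family name and with the levels and fold changes of these same libraries in view. The values of the 9 genes below and their calls are therefore a description, and no p-value is given for them. The samples were 15 RNA-seq libraries of 4T1, a mouse mammary carcinoma cell line, from 5 populations with 3 biological replicates each. The parental population is labelled WT. The other 4, named E1, E2, A and M, are clones labelled as expressing iRFP670, a near-infrared fluorescent protein, and were each grown from a single cell isolated after the parental population had been transfected with a plasmid for a nuclear form of that protein. Clones were maintained in G418, a selection drug that was withdrawn before RNA collection, and RNA was taken from all populations after 72 h of culture at about 80% confluency. Each clonal population is 1 clone, so the spread between its replicates says nothing of other clones, and transfection, single-cell isolation and G418, shared by all 4 clones, cannot be told apart in any comparison with the parental population.

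ADAM proteins carry a prodomain, a metalloprotease domain, a disintegrin domain and a membrane anchor, and they cut the outer parts of other membrane proteins from the cell, a step called shedding. ADAMTS proteins lack the anchor and carry thrombospondin repeats instead. With the repeats they bind the extracellular matrix, and with the protease domain they cut it. ADAMTS-like proteins keep the repeats and lack the protease domain. Sheddases release EGF receptor ligands, Notch ligands and adhesion molecules in epithelial tumours, and tissue inhibitors of metalloproteinases (TIMP proteins) block many of them.

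The catalytic zinc ion is held by 3 histidines, and a glutamate beside the first of them takes part in the cut. The codons of this site are shown because they separate the 9 genes into proteases and a non-protease. They were read from the longest coding transcript of each gene in GENCODE M21 (build GRCm38), 5′ to 3′ on the coding strand, and exons are numbered in that transcript. Capitals mark the codons of the 3 histidines and the glutamate.
Adam8, chr7:139987893-139987925, minus strand, exon 11: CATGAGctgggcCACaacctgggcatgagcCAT
Adam9, chr8:24990326-24990358, minus strand, exon 11: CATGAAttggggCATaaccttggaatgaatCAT
Adam12, chr7:133961158-133961190, minus strand, exon 11: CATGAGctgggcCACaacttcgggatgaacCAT
Adam15, chr3:89344780-89344812, minus strand, exon 11: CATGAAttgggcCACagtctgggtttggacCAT
Adam17, chr12:21336732-21336764, minus strand, exon 12: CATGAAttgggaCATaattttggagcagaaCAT
Adam19, chr11:46125050-46125082, plus strand, exon 11: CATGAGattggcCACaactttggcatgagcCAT
Adamts1, chr16:85799191-85799545, minus strand, split by the intron between exons 3 and 4: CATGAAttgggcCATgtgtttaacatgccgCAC
Adamts9, chr6:92905285-92908493, minus strand, split by the intron between exons 8 and 9: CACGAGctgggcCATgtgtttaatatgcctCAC

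All 4 codons were found in this order in 8 of the 9 genes, and no such run of codons was found in the coding sequence of Adamtsl3. In the 6 ADAM genes a glycine codon lay between the last 2 histidines at the usual place of the family, and in Adamts1 and Adamts9 it did not. Over the 33 bases, Adamts1 and Adamts9 shared 28 bases, Adam8 shared 29 with Adam12 and 29 with Adam19, and Adam9 shared 25 with Adam17. Of the 20 other family genes with enough counts to be tested, 9 held the codons with the glycine, 2 held them without it and 9 held none.

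Libraries held 20143111 to 36831801 counts. One unnamed identifier held between 36.79% and 49.35% of all counts, with the largest shares in parental replicate 1 and E2 replicate 1 (below, the libraries of high top share), and 6164768 to 14206491 counts lay outside the 6 genes with the most counts. Levels are given as CPM, counts scaled to a common library size after adjustment by edgeR's TMM factors. At these depths 1 CPM stood for 19.21 to 40.8 counts. All 8 epithelial markers were expressed, with summed levels from 285.1 to 314.8 CPM in the parental libraries, 400.6 to 515.6 in E1, 449.6 to 493.9 in E2, 577.9 to 644.6 in A and 360.3 to 639.3 in M. The keratins Krt7, Krt8 and Krt18 made up most of these sums. Cdh1, E-cadherin, went the other way, from 68.21 ± 12.88 CPM (SD, n = 3) in parental to 22.37 ± 3.31 in A (adjusted p = 9e-07, edgeR quasi-likelihood test with Benjamini-Hochberg adjustment) and 36.34 ± 8.16 in M (adjusted p = 0.00225), both called under all 22 alternatives. Cldn7, a claudin, fell in A from 6.129 to 3.54 CPM (adjusted p = 0.0329), a call lost without parental replicate 1 or 3, without A replicate 2 or 3 and without the 2 libraries of high top share, and Krt19 stood at 4.18 CPM in parental and 3.182 in A with no call. These 3 genes were singled out after their values were seen. Leukocyte markers summed to at most 1.241 CPM in any library, with Cd3e, Itgam and Adgre1 at 0 in all 15, and endothelial markers to at most 0.4305 CPM, with Emcn at 0. Of the 8 fibroblast markers, Dcn, Lum and Thy1 had no count in any library and only Pdgfra had enough counts to be tested. Their sum was 21.19 to 33.76 CPM in A and 3.342 to 12.13 CPM in the other libraries.

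Adam19 was the one member for which every clone library lay above all parental ones. Adam19 (chr11:46054502-46147347), also called meltrin beta, is a sheddase of neuregulins. Its parental libraries stood at 10.63, 12.17 and 14.42 CPM. The clones had 30.93, 35.59 and 31.94 CPM in E1, 23.06, 29.47 and 32.37 in E2, 28.37, 28.47 and 30.66 in A, and 34.2, 41.13 and 40.21 in M. This arrangement of 12 libraries above 3 is shared by 3.96% of tested genes. The log2 fold change against parental, with its standard error (SE) from the spread of log2 CPM in both populations, was 1.39 ± 0.14 for E1, 1.18 ± 0.19 for E2, 1.22 ± 0.13 for A and 1.63 ± 0.15 for M. A call means an adjusted p under 0.05 over all tested genes. Adam19 was called higher in all 4 clones, as were 2.45% of tested genes, and nothing is read from this because the gene was chosen with these values known. These 4 comparisons use the same 3 parental libraries. Among the clones the order by mean was M, E1, A and E2, with M overlapping E1 and A overlapping E2.

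**Figure D1:**
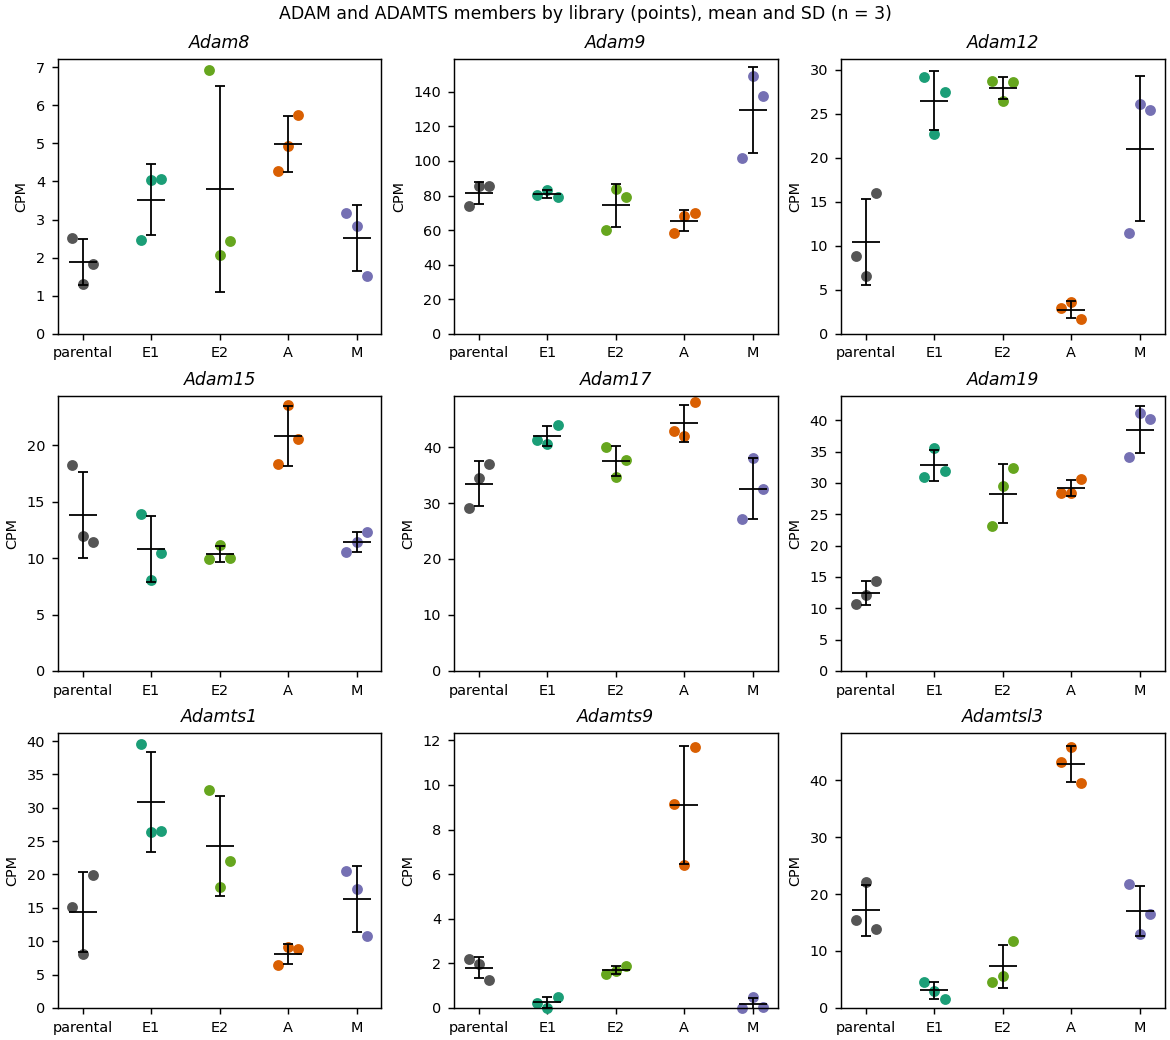
CPM of each of the 9 genes (y axis, linear, from 0, scaled per panel) in the parental population and the clones E1, E2, A and M (x axis). Points are the 3 libraries of a population, horizontal bars the mean and vertical bars the SD. Adam19 is lowest in the parental libraries, Adam12 is lowest in A, Adamts9 and Adamtsl3 are highest in A, and Adam9 is highest in M.

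Adam12 split the clones in opposite directions. Adam12 (chr7:133883199-134225097), meltrin alpha, is a sheddase of heparin-binding EGF-like growth factor that is low in most adult tissues and raised in many carcinomas. Parental libraries had 8.821, 6.621 and 15.97 CPM, against 29.17, 22.72 and 27.5 in E1 and 28.73, 26.5 and 28.66 in E2. A had 2.989, 3.587 and 1.66 CPM, below all 12 other libraries, as 6.76% of tested genes do in A. M had 11.5, 26.1 and 25.42 CPM, so that its first library lay within the parental range and the other 2 close to E1 and E2. On the log2 scale E1 differed from parental by 1.33 ± 0.39, E2 by 1.41 ± 0.37, A by -1.91 ± 0.49 and M by 1.00 ± 0.54. The call in A was kept under all 22 alternatives. That in M was lost in 14 of them, that in E1 without parental replicate 1 alone or with E2 replicate 1, and that in E2 without both of these.

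Adam9 was highest in M. Adam9 (chr8:24949611-25017040), meltrin gamma, is a widely expressed sheddase. M libraries had 101.8, 149.0 and 137.7 CPM, above all 12 others, as 0.795% of tested genes do in M. Parental libraries had 74.14, 85.27 and 85.28 CPM, E1 80.5, 83.35 and 78.99, E2 60.11, 83.51 and 79.23, and A 58.56, 68.13 and 69.67. Parental, E1 and E2 overlapped one another, and A lay below parental and E1 without overlap. M exceeded parental by a log2 fold change of 0.67 ± 0.18, a difference called under all 22 alternatives, and in A it was -0.32 ± 0.10 with no call.

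Adam17 and Adam15 varied least among the 9 genes beside Adam9. Adam17 (chr12:21323509-21373632) encodes TACE, the sheddase of tumour necrosis factor and of several EGF receptor ligands. Its highest population mean was only 1.361 times its lowest. A had 42.88, 41.94 and 48.06 CPM and E1 41.34, 40.56 and 43.96, against 29.06, 34.41 and 37.0 in parental, 39.97, 34.63 and 37.75 in E2 and 27.1, 38.04 and 32.47 in M. Both A and E1 lay above parental without overlap, and the other 2 clones overlapped it. A log2 fold change of 0.40 ± 0.12 in A was called, a call that was lost in 14 of 22 alternatives, among them each of those without 1 A library.

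Adam15 (chr3:89339640-89350028), a membrane protease whose disintegrin domain binds integrins, had 18.34, 23.58 and 20.6 CPM in A, above all 12 others, as 8.66% of tested genes do in A. The gap was small, since parental replicate 1 had 18.25 CPM while the other 2 parental libraries had 11.94 and 11.4. E1 had 13.92, 8.084 and 10.47 CPM, E2 9.888, 11.17 and 9.999, and M 10.53, 11.4 and 12.3. A exceeded parental by 0.59 ± 0.24 on the log2 scale, and this call was lost without parental replicate 2 or 3 and without A replicate 2 or 3.

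Adam8 (chr7:139978932-139995207), a protease first known from myeloid cells, was low throughout. A had 4.285, 4.925 and 5.75 CPM, parental 2.507, 1.301 and 1.826, E1 2.451, 4.042 and 4.068, E2 6.922, 2.06 and 2.431, and M 3.173, 2.843 and 1.522. E2 replicate 1 was the highest of all 15 libraries while the other 2 E2 libraries lay within the parental range. A alone among the clones did not overlap parental, with a log2 fold change of 1.38 ± 0.29, and its call was lost without parental replicate 2. Summed leukocyte markers were 0.492 to 0.9633 CPM in A and 0.1914 to 0.975 in parental. Among them Csf1r had 15, 1 and 6 counts in A against 0, 1 and 0 in parental. Their part in the level of Adam8 was not tested.

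Among the secreted members, Adamts1 had its highest mean levels in E1 and E2. Adamts1 (chr16:85793827-85803113) encodes a protease of versican and aggrecan. E1 had 39.52, 26.44 and 26.52 CPM and E2 32.68, 18.15 and 22.0, against 15.14, 8.037 and 19.9 in parental, 20.45, 17.84 and 10.85 in M and 6.411, 9.164 and 8.825 in A. All 3 E1 libraries exceeded the parental ones, E2 and M overlapped them, and A overlapped only the lowest of them. Relative to parental the log2 values were 1.10 ± 0.43 (E1), 0.75 ± 0.46 (E2), -0.82 ± 0.42 (A) and 0.19 ± 0.47 (M). Only that in E1 was called, and it was no longer called when E1 replicate 1, parental replicate 1 or parental replicate 2 was left out, while the value in A was called under 10 of 22 alternatives.

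Adamts9 (chr6:92772699-92944450), another protease of versican and aggrecan, had the widest range of the 9 genes, with a highest population mean 49.15 times the lowest. A had 9.134, 6.425 and 11.71 CPM, above all other 12 libraries. Parental libraries had 2.182, 1.99 and 1.26 CPM and E2 1.509, 1.676 and 1.884, overlapping each other. E1 had 8, 0 and 16 counts and M had 0, 20 and 2 counts, that is 0.2421, 0 and 0.5045 CPM and 0, 0.4902 and 0.06475 CPM. A count of 0 leaves room for up to 3 counts in that library. Against parental, log2 fold changes were -2.50 ± 0.94 for E1, -0.09 ± 0.25 for E2, 2.29 ± 0.34 for A and -2.78 ± 0.92 for M. The calls in A and M were kept in all 22 alternatives, and that in E1 was lost without the 2 libraries of high top share. Counting error and the spread of these low counts make the sizes in E1 and M imprecise.

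Adamtsl3 (chr7:82335399-82614450), the member without the zinc-site codons and also called punctin-2, encodes a matrix protein. A had 43.21, 45.82 and 39.54 CPM, above all other libraries, and E1 had 4.6, 2.974 and 1.64, below all others, as 0.85% of tested genes do in E1. Parental libraries had 15.41, 22.16 and 13.82 CPM, M 21.77, 13.01 and 16.41, and E2 4.632, 5.586 and 11.67. Parental and M overlapped, E2 lay below both, and E1 lay below E2. Differences from parental on the log2 scale were -2.45 ± 0.47 for E1, -1.22 ± 0.45 for E2, 1.32 ± 0.21 for A and -0.01 ± 0.30 for M. The calls in E1 and A were kept in all alternatives, and that in E2 was lost when replicate 1 or 2 of parental or of E2 was left out, and without both libraries of high top share. The sum of fibroblast markers, made up mostly of Pdgfra, was also highest in A, while Dcn, Lum and Thy1 were at 0 there. Its part in the levels of Adamtsl3 and Adamts9 was not tested, and in bulk RNA fewer cells with a gene and less RNA per cell cannot be told apart.

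Counted over the list, 5 of 9 members were called in E1 against parental (3 higher and 2 lower), where 15.1% of all tested genes were called (7.77% higher and 7.35% lower). In E2 3 were called (2 higher, 1 lower), beside 17.9% of all genes (9.14% and 8.8%). In A 7 were called (6 higher, 1 lower), beside 30.0% of all genes (15.1% and 14.9%). In M 4 were called (3 higher, 1 lower), beside 14.1% of all genes (7.87% and 6.28%). Libraries lay fully apart from the parental ones for 6 members with E1, 4 with E2, 8 with A and 3 with M, beside 33.4%, 32.6%, 44.6% and 29.3% of all genes. The median log2 fold change of the 9 genes was 0.32, 0.16, 0.59 and 0.19 in the same order, and that of all tested genes was -0.01, 0.01, 0.03 and -0.01. Since the list was chosen with these values known, nothing is read from these shares. Without parental replicate 1 and E2 replicate 1 the count was 3 in E1 and 1 in E2. The share of all tested genes called in that fit is not given here, so nothing is read from the lower counts.

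**Figure D2:**
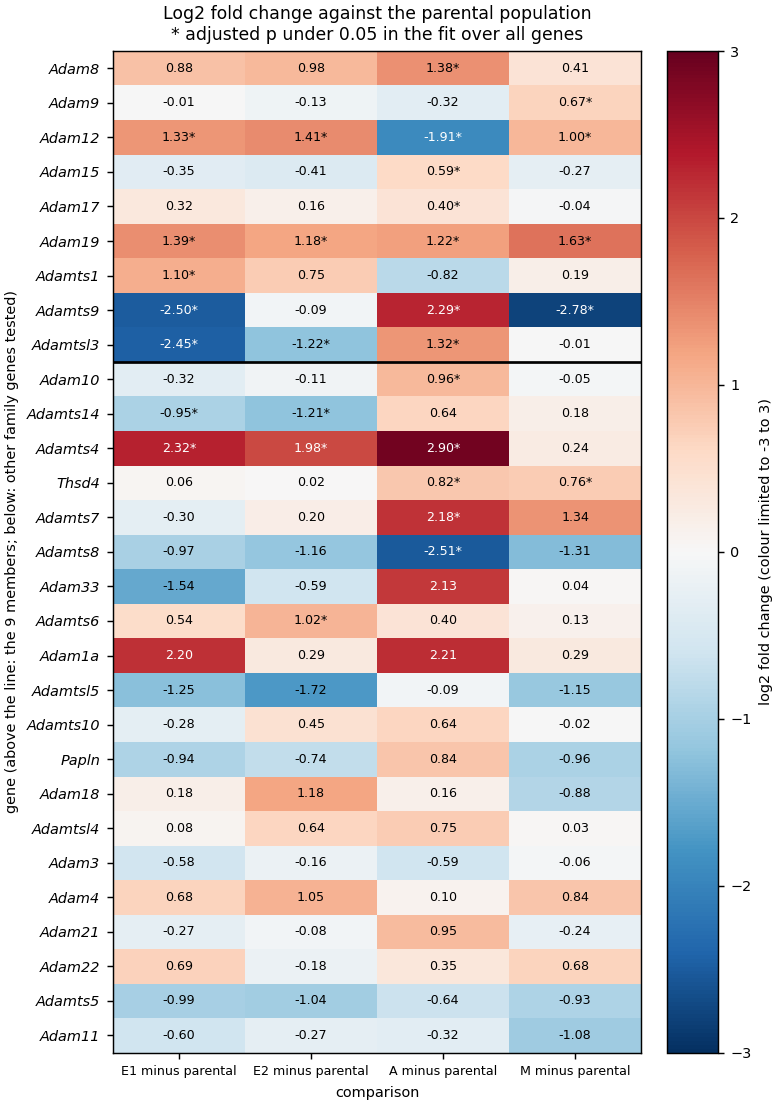
Log2 fold change of each clone against the parental population (columns) for the 9 members (above the line) and the 20 other family genes with enough counts (below it). Colour and number give the log2 fold change, and an asterisk marks a call. Adam19 is positive and called in all 4 columns, Adam12 is negative only in A, and the values of Adam33 and Adamts9 in E1 and M rest on few counts.

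Between the clones, E1 and E2 had the fewest calls. No member was called between them by edgeR, beside 0.236% of all genes. An unadjusted p under 0.05 was found for 2 members, beside 8.84% of all genes. DESeq2 called 2 members, and its share of all genes is not given here. A differed from E1 in 5 members, beside 29.6% of all genes, and from E2 in 5, beside 22.4%. These were the same 5 genes: Adam12 and Adamts1 were lower in A, and Adam15, Adamts9 and Adamtsl3 higher. M differed from A in 7, beside 17.7%, all but Adam8 and Adam19. Against E1, M was called in 2 members, beside 3.89%, with Adam9 and Adamtsl3 higher in M. Against E2 it was called in 2, beside 3.5%, with Adam9 higher and Adamts9 lower in M. The largest log2 differences between clones were those of Adamts9, 4.79 between A and E1 and -5.07 between M and A.

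Compared per kilobase of exon (CPM per kb, from the union of annotated exons), the order of the members changed between populations while its top did not. Adam9 was the highest member in every population, from 15.91 ± 1.46 in A to 31.47 ± 5.99 in M (SD, n = 3), with 19.82 ± 1.56 in the parental cells. In the parental cells Adam17 followed with 4.68 ± 0.57, then Adamts1 with 2.71 ± 1.13, Adam15 with 2.26 ± 0.62, Adamtsl3 with 2.21 ± 0.57 and Adam19 with 1.74 ± 0.27, which overlapped within their SD. Adam12 had 0.990 ± 0.462, Adam8 0.405 ± 0.130 and Adamts9 0.120 ± 0.032. In A, Adamtsl3 came to 5.53 ± 0.41, close to Adam17 at 6.19 ± 0.46, and Adam12 was lowest at 0.260 ± 0.093. Summed over the 6 ADAM members, CPM per kb was 29.9 ± 1.89 for parental, 35.17 ± 0.14 for E1, 32.41 ± 2.74 for E2, 30.92 ± 2.25 for A and 45.81 ± 8.02 for M, sums in which Adam9 is the largest term.

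The rest of the 2 families was taken by name: 52 further ADAM, ADAMTS and ADAMTS-like genes, of which 20 had enough counts to be tested and 20 had no count in any library. The tested ones passed a filter that a gene can pass through its highest population alone, so their counts are no summary of all 52. Against parental, 2 were called in E1 (1 higher, 1 lower), 3 in E2 (2 higher, 1 lower), 5 in A (4 higher, 1 lower) and 1 in M (higher), beside 15.1%, 17.9%, 30.0% and 14.1% of all tested genes. Each of these counts out of 20 lies below that share. The median log2 fold changes were -0.29, -0.09, 0.64 and 0.01, beside the medians of all genes above. In the test of any difference among the 5 populations 8 of the 20 were called, as were 7 of the 9 members, beside 40.9% of all tested genes.

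Adam10, the main sheddase of Notch receptors, cadherins and many other proteins, rose in A. It had 171.1, 179.6 and 202.1 CPM there, above all other 12 libraries, and 72.7, 113.7 and 97.37 in parental, where E1, E2 and M overlapped. Its log2 fold change in A was 0.96 ± 0.20 (adjusted p = 8.39e-05, edgeR quasi-likelihood test with Benjamini-Hochberg adjustment), and it was called under all alternatives. With Adam10 included, all 34 measured ADAM genes summed to 69.76 ± 5.37 CPM per kb in A and 65.72 ± 8.24 in M, against 50.37 ± 5.82 in parental. The sum over the 6 members alone, in contrast, differed little between A and parental.

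Adamts4, a cartilage aggrecanase, rose in E1, E2 and A, from 0.7428, 0.1531 and 0.4094 CPM in parental to 1.786, 3.717 and 1.766 in E1, 1.926, 1.047 and 2.705 in E2 and 2.657, 4.403 and 3.843 in A. M stayed within the parental range with 0.5288, 0.6617 and 0.3561 CPM. Log2 fold changes were 2.32 ± 0.64 (adjusted p = 0.00278), 1.98 ± 0.66 (adjusted p = 0.00761) and 2.90 ± 0.58 (adjusted p = 0.000117), and that in E2 was not called without E2 replicate 3 (adjusted p = 0.0581). Adamts7, a protease of cartilage oligomeric matrix protein, rose in A by 2.18 ± 0.23 on the log2 scale (adjusted p = 0.00481), with 7.939, 8.186 and 8.609 CPM against 1.254, 2.143 and 1.889 in parental. E1 replicate 2 had a single count of this gene while the other 2 E1 libraries had 65 and 69.

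Adamts8 fell in A, from 3.575, 1.914 and 4.44 CPM in parental to 0.2989, 0.7175 and 0.5535, a log2 fold change of -2.51 ± 0.48 (adjusted p = 0.00154). Adamts14, a procollagen N-proteinase, fell in E2 (-1.21 ± 0.13, adjusted p = 0.00372) and in E1 (-0.95 ± 0.22, adjusted p = 0.022), from 5.807 CPM in parental to 2.46 and 2.966. The call in E1 was lost without E1 replicate 1 or 2, without parental replicate 1 or 3, and without the 2 libraries of high top share. Its 9.087 CPM in A gave a log2 fold change of 0.64 ± 0.23 (adjusted p = 0.0789).

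Thsd4, an ADAMTS-like protein bound to fibrillin, rose in A (0.82 ± 0.15, adjusted p = 0.00276) and in M (0.76 ± 0.23, adjusted p = 0.0114), from 16.14 CPM to 28.48 and 27.43, and the call in M was lost without parental replicate 3 or M replicate 1. Adamts6 rose in E2 from 4.457 to 9.161 CPM (1.02 ± 0.24, adjusted p = 0.0144), a call that was lost without parental replicate 1, alone or with E2 replicate 1. Adam33 differed among the populations (adjusted p = 0.0227) with no call against parental. It had 25, 14 and 37 counts in A, at most 8 in any other library and none in the 3 E1 libraries.

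**Figure D3:**
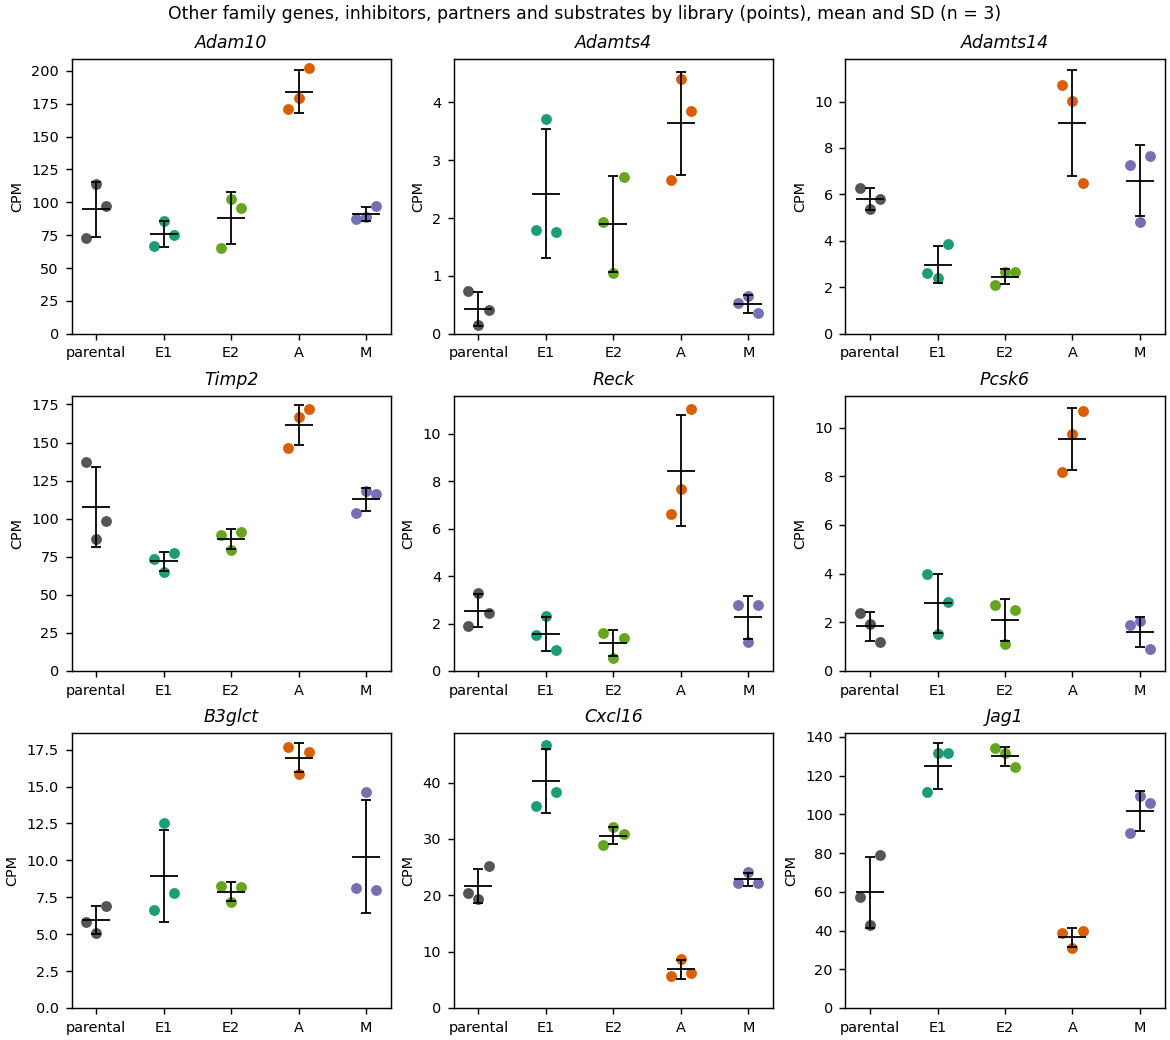
CPM (y axis, linear, from 0, scaled per panel) of 3 other family genes, 2 inhibitors, 2 genes of protease maturation and 2 ADAM substrates, by population (x axis). Points are libraries, horizontal bars the mean and vertical bars the SD over 3 libraries. Adam10, Reck, Pcsk6 and B3glct are highest in A, and Cxcl16 and Jag1 are lowest there.

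Of 5 inhibitor genes 3 were tested. Of the rest, Timp3 had 4 counts in parental replicate 1 and none in any other library, and Timp4 had none at all. Timp2, a secreted inhibitor of matrix metalloproteinases, rose in A (0.59 ± 0.21, adjusted p = 0.0038), with 146.7, 166.5 and 171.9 CPM against 137.0, 86.72 and 98.44 in parental. It fell in E1 (-0.58 ± 0.21, adjusted p = 0.0108) to 73.63, 65.0 and 77.32 CPM, a call lost when parental replicate 1 or E1 replicate 2 was left out, and without the 2 libraries of high top share. Reck, a membrane-anchored inhibitor, rose in A by 1.70 ± 0.31 (adjusted p = 0.00199) to 6.61, 7.664 and 11.07 CPM from 1.903, 3.291 and 2.425. Timp1 stood at 4.685 CPM in parental and between 3.204 and 5.476 in the clones, with no call.

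Among 13 tested genes of the 15 for prodomain removal, transport and glycosylation, calls numbered 1 for E1 (higher), 2 for E2 (1 higher, 1 lower), 4 for A (3 higher, 1 lower) and 1 for M (higher), beside 15.1%, 17.9%, 30.0% and 14.1% of all tested genes. These counts are near or below what such shares of 13 genes come to. Pcsk6, a proprotein convertase, rose in A by 2.35 ± 0.30 (adjusted p = 4.93e-05), from 2.368, 1.914 and 1.197 CPM to 8.171, 9.751 and 10.67. B3glct, which adds glucose to fucose on thrombospondin repeats, rose 2.82-fold in A (adjusted p = 5.06e-05) and 1.72-fold in M (adjusted p = 0.0352), and the latter call was lost without parental replicate 1, parental replicate 2 or M replicate 2, without the 2 libraries of high top share, and with only the 2 populations compared. Pofut2, which adds that fucose, rose in E1 by 0.60 ± 0.08 (adjusted p = 0.0478), a call lost in 17 of 22 alternatives. Frmd8, a partner of the iRhom proteins that carry Adam17 to the cell surface, rose in A (0.72 ± 0.07, adjusted p = 0.00724) and in E2 (0.63 ± 0.15, adjusted p = 0.0305), and the latter call was lost without any 1 of the parental libraries and without E2 replicate 2 or 3. Rhbdf2, which encodes an iRhom and was singled out after its value was seen, fell in A (-0.61 ± 0.25, adjusted p = 0.0346) from 12.33 to 8.039 CPM with overlapping libraries, a call lost without parental replicate 1 or 3, without A replicate 2 or 3 and without the 2 libraries of high top share. Tspan14, a tetraspanin partner of Adam10, fell in E2 (-0.60 ± 0.22, adjusted p = 0.0438), a call lost in 9 of 22 alternatives. Tspan5 differed among the populations (adjusted p = 0.0329) with no call against parental.

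Of 40 genes for ADAM substrates, which are shed membrane proteins and the secreted binding proteins Igfbp3 and Igfbp5, 31 were tested, and 5 were called higher in E1 and 7 in E2, with none lower, 16 higher and 6 lower in A, and 13 higher and 2 lower in M. Over all tested genes 15.1%, 17.9%, 30.0% and 14.1% were called in these comparisons, so that the counts in E1 and E2 were near those shares of 31 genes and those in A and M above them. The list's median log2 fold changes were 0.10, 0.21, 0.52 and 0.43, beside -0.01, 0.01, 0.03 and -0.01 for all tested genes. The list was chosen with earlier results of these data known, and a gene can pass the filter through its highest population alone. Nothing is therefore read from these counts and medians. Cxcl16, a membrane chemokine, fell in A to 5.713, 8.773 and 6.149 CPM from 20.43, 19.33 and 25.16 (-1.65 ± 0.22, adjusted p = 1.19e-07) and rose in E1 (0.89 ± 0.16, adjusted p = 0.000814). The Notch ligand Jag1 fell in A (-0.71 ± 0.28, adjusted p = 0.00196) and rose in E1, E2 and M by 1.06, 1.12 and 0.77. Dll1, another Notch ligand, rose in all 4 clones, from 1.764, 3.521 and 3.873 CPM in parental to between 7.566 and 19.85 in the clone libraries. Alcam, an adhesion molecule, rose in A by 2.07 ± 0.33 (adjusted p = 2e-06) and in M by 0.91 ± 0.33 (adjusted p = 0.016). The receptor Met rose in E1, E2 and M by 0.99, 1.12 and 1.15 and stood at 0.04 ± 0.21 in A, and Epcam rose in all 4 clones by 1.35 to 1.57. The Cxcl16 value in E2 (0.50 ± 0.12, adjusted p = 0.0461) lost its call in 16 of 22 alternatives, and that of Alcam in M was lost in 4.

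Of 20 genes listed as substrates of ADAMTS proteases only 5 had enough counts to be tested. Thbs1, thrombospondin 1, rose in all 4 clones (log2 fold changes 2.29 to 3.01). Fn1, fibronectin, fell in E1 (-1.04 ± 0.32, adjusted p = 0.00322) and in E2 (-0.82 ± 0.34, adjusted p = 0.0138), where the call was lost without parental replicate 1 or E2 replicate 2 and without the 2 libraries of high top share. Sdc4, a membrane proteoglycan that is on both substrate lists, rose in A (0.69 ± 0.04, adjusted p = 0.000188) and M (0.79 ± 0.04, adjusted p = 0.000121). Prg4 and Nid1 had no call.

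The genes around the members were compared next, to see whether neighbours on the chromosome moved with them. For each member the tested genes that start within 1 Mb were taken, 5 to 62 genes. Over all tested genes 7.77%, 9.14%, 15.1% and 7.87% were called higher in E1, E2, A and M against parental. Those called lower were 7.35%, 8.8%, 14.9% and 6.28%. Where Adam12 was -1.91 in A, the median of its 9 neighbours was 0.24 and none was called. Where Adamts9 was 2.29 in A, -2.50 in E1 and -2.78 in M, the medians of its 5 neighbours were -0.08, 0.05 and 0.31, with 2 called lower in A and none in E1 or M. The 7 neighbours of Adam19 had medians from -0.37 to -0.02 in the 4 clones, with 1 called higher in each and 1 called lower in A. Around Adamtsl3 the 11 neighbours had a median of -0.53 in E1, where 3 were called lower, and 0.15 in A, where 1 was called higher. The 16 neighbours of Adam9 had a median of -0.49 in M, where 4 were called lower and none higher, while Adam9 itself was at 0.67. In the other clones their medians were -0.46 in E1 (4 called lower), -0.34 in E2 (5 lower) and -0.23 in A (2 lower, 1 higher). Adam9 was at -0.01, -0.13 and -0.32 there. No neighbourhood median was further from 0 than 0.53.

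**Figure D4:**
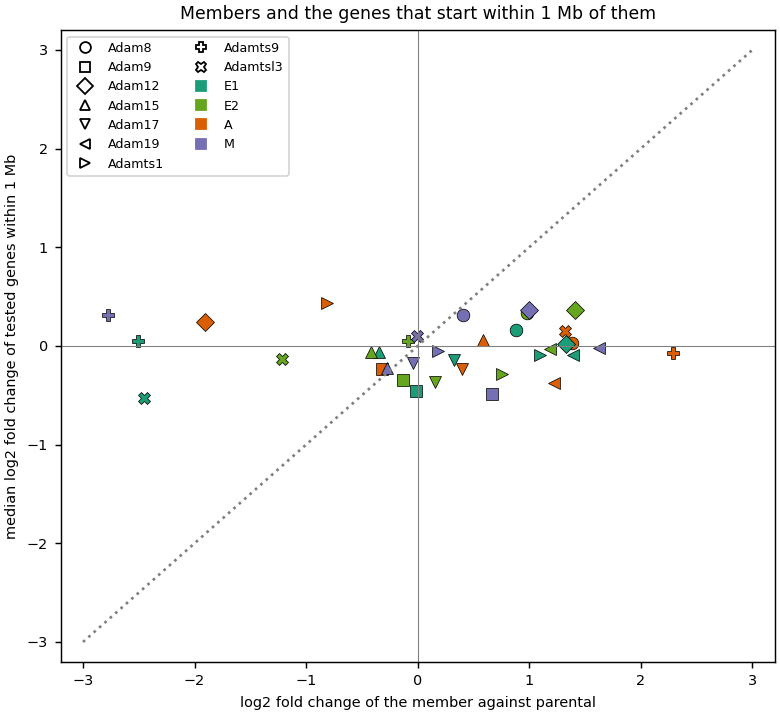
Log2 fold change against parental of each member (x axis) and the median log2 fold change of the tested genes that start within 1 Mb of it (y axis), both on the same scale. Symbols stand for genes, colours for clones, and the dotted line marks equal values. Members range from -2.78 to 2.29 while the neighbourhood medians range from -0.53 to 0.44.

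As a description, the genes whose log2 CPM followed each member most closely over the 15 libraries (Pearson correlation r over libraries that share their depth and population, with no test) were Rasl11b (0.878) and Wdr90 (0.859) for Adam8, Eea1 (0.905) and Picalm (0.902) for Adam9, and Serpinb5 (0.969) and Noct (0.961) for Adam12. For Adam15 they were B2m (0.931) and Ciao1 (0.912), for Adam17 Slc25a10 (0.876) and Gas2l1 (0.861), and for Adam19 Cav1 (0.957) and Lipg (0.95). For the secreted members they were Nol9 (0.936) and Lif (0.929) for Adamts1, Vsir (0.954) and Hspa1b (0.935) for Adamts9, and Tenm4 (0.961) and Pros1 (0.955) for Adamtsl3. Among the members themselves Adam12 and Adamts1 had r of 0.802, Adamts1 and Adamtsl3 -0.828, and Adam12 and Adam15 -0.802.

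Exons of 5 members overlap exons of genes on the opposite strand. The shared length is 1263 of 6145 exon bases for Adam15 (with 4731419I09Rik), 1381 and 424 of 15048 for Adamts9 (with A730049H05Rik and Gm15737), 587 and 480 of 7115 for Adam19 (with Gm16033 and Gm16034), 311 of 7154 for Adam17 (with Iah1) and 46 of 4638 for Adam8 (with Gm16201). The library kit is described as directional, but the strand setting of the counting is not given in the sources used here, so reads of these pairs cannot be told apart. The part of the antisense genes in the values was not tested. Adam9, Adam12, Adamts1 and Adamtsl3 share no exon base with another annotated gene.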

How the data were processed

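The data are 15 RNA-seq libraries of 5 populations of 4T1 cells, with 3 replicates each, grouped by the population named in the labels. Raw counts per gene were deposited by the authors, made with HISAT2 and featureCounts on GRCm38 (mm10), per the submitters' processing notes. Tool versions and the strand setting of the counting are not given in the sources used here. The 4 deposited tables of the whole series were not used here.

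Identifiers were joined to symbols with a RefSeq gene table (25275 of 27179) and GENCODE M21 (18 more), and 1886 stayed unnamed. Counts were analysed in R 4.3.3 with edgeR 4.0.16 (limma 3.58.1), on the 12712 genes that passed filterByExpr with a minimum count of 10 and a total of 15. A robust quasi-likelihood fit with TMM factors and population as its only term, over all 15 libraries, tested the 10 pairs of populations and any difference among the 5. P-values were Benjamini-Hochberg adjusted over all tested genes within each comparison, and a call means an adjusted p under 0.05. Log2 fold changes used a prior count of 2. Levels are CPM on TMM-adjusted totals, per kilobase of GENCODE exon where genes are compared. Each replicate counted as its own sample because the labels call it a biological replicate. Every pair of replicates differed by more than counting noise, which does not by itself show separate cultures. P-values measure the spread between cultures of 1 population.

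The members, the other lists and the tests were chosen with earlier results of these data known. All members are named, with the other family genes called in the test of any difference, up to 6 genes of each other list by that test, and the 2 named genes with the highest correlation with each member. Protein sequences were not used here: the zinc site was found by translating GENCODE M21 coding sequences, and only codons are printed. The fitting code was checked on simulated counts. The alternatives were RLE factors, no filter, DESeq2 1.42.0, the replicate number as a block, totals without the 6 genes with the most counts, leaving out parental replicate 1 and E2 replicate 1, the libraries of high top share, leaving out each library, and fitting only the 2 populations compared.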

Additional observations from a re-analysis of the deposited data

Results flagged for a closer look

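In 3 of the 9 genes, a pair of clones had calls in opposite directions against the parental population, and the difference between those clones was itself called in the fit across all genes. The genes were chosen with these values known, and the share of all tested genes that meet this rule is not given here. The count and the sizes are therefore a description, and nothing is read from the count. For Adam12 the log2 difference was -3.24 for A minus E1, -3.32 for A minus E2 and 2.91 for M minus A. For Adamts9 it was 4.79 for A minus E1 and -5.07 for M minus A, where E1 and M had at most 20 counts in a library. For Adamtsl3 it was 3.77 for A minus E1 and 2.54 for A minus E2. Clone A is part of all 7 pairs. Against parental 30.0% of all tested genes were called in A, beside 15.1% in E1, 17.9% in E2 and 14.1% in M. The opposite calls against parental were lost in some alternatives for Adam12 in E1, E2 and M, for Adamts9 in E1 and for Adamtsl3 in E2, while the 7 differences between clones kept their calls in all 22 alternatives.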

How the results depend on the processing

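Each result was recomputed under 22 alternatives. No called value changed sign. Of all 4704 recomputed log2 fold changes, with and without a call, 74 changed sign, and none of these had a call. Of 19 member calls against parental 10 were kept under every alternative, and of 21 between clones 17 were. The totals of calls, counted per gene and comparison, were 14 to 20 and 18 to 22 when 1 library was left out. They were 9 to 12 (11 in all) for the other family genes and 59 to 68 (66 in all) for the other lists. Per comparison, leaving out 1 library gave 3 to 5 members called in E1 against parental, 0 to 1 in E2 against E1, 1 to 3 in M against E1 and 1 to 3 in M against E2. Without parental replicate 1 and E2 replicate 1, the libraries of high top share, 3 members were called in E1 and 1 in E2 against parental, and 1 in M against E2. Without a filter 2 members were called in E2 against E1, and DESeq2 also called 2, with no share of all genes given here for either. With only the 2 populations compared in the fit, 1 was called in M against E2. For none of these alternatives is the share of all tested genes called given here. Nothing is therefore read from how the counts of calls changed. The causes were not tested.

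The labels number the replicates 1 to 3 in every population but do not say that a number marks a shared culture or day. Deviations from the population mean had a median correlation of 0.0539 over 30 pairs with the same number (4 over 0.1). Over 60 pairs with different numbers it was -0.02875, with none over 0.1. Of 15 libraries 13 correlated best with their own number, so libraries of the same number were slightly more alike. What they shared was not tested. Since the labels name no pairing, the main fit left the number out. With the replicate block the members had 18 calls against parental and 21 between clones, counted per gene and comparison. Against parental there were 11 calls for the other family genes and 69 for the other lists. Adamts9 in E1 and M, Adam33 and Adam8 rest on the fewest counts, and depth limits their sizes.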
